A study of Homo sapiens with 6 samples.

Results

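Messenger RNA of 46 genes of spindle assembly, chromosome condensation and cohesion, and cytokinesis was followed in MDA-MB-231 cells treated with riluzole. MDA-MB-231 is an established human triple-negative breast cancer line, which lacks the hormone receptors. The riluzole group received 25 µM riluzole, a glutamate-modulating drug given in amyotrophic lateral sclerosis, and the vehicle group received the solvent DMSO alone. Both groups were grown in RPMI medium with serum and held 3 samples, each on 1 Illumina bead array. The sample labels give 24 hours of treatment, whereas the title and design speak of overnight treatment. The labels do not say that the samples came from separate cultures, so every p-value here reflects array-to-array spread that could be technical alone.

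The 46 genes were taken by name, through the array's symbol or an older synonym. The list was made with earlier results of these data known, so its choice was not blind to their values. They comprise 17 spindle-associated proteins, 17 condensin and cohesin genes, 6 cytokinesis factors, and 6 further mitotic genes that stand in none of these subgroups. Of the 46, 45 were tested among the 14887 genes tested, out of 30818 named on the array. Testing required a probe detected (p under 0.05 against the negative controls) on 3 or more of the 6 arrays. CIT, the citron kinase of the midbody, was not detected on any array. Its raw signals were 121, 125 and 120 on the riluzole arrays, against 106, 111 and 97.3 on the vehicle arrays. SMC1A was detected on 3 riluzole arrays and 2 vehicle arrays, and the other 44 were detected on all 6.

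A dividing cell compacts its chromosomes with condensin, holds sister chromatids together with the cohesin ring, and separates them on a spindle of microtubules organised by dedicated nucleating, bundling and crosslinking proteins. The cell body is then divided by a contractile ring that forms around the central spindle, and the last bridge is severed at the midbody. Many spindle and cytokinesis genes are transcribed in a peak at G2 and mitosis, whereas cohesin ring subunits are needed throughout the cell cycle.

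Late cell cycle promoters are known for the cell cycle genes homology region, a short element near the transcription start read by MuvB complexes, often below CCAAT boxes bound by NF-Y. RefSeq promoter windows of GRCh38.p14, running from 250 bases before to 50 bases after the start, were matched for 38 of the 46 genes. The other 8 genes were TROAP, TPX2, TACC1, FAM83D, NCAPH2, RAD21, RACGAP1 and CDCA2. The letters TTTGAA, their reverse complement TTCAAA and the palindrome TTCGAA were searched, which reads both strands. Anywhere in the 300-base window they occurred in 29 of the 38 genes (76.3%), against 15.8% of tested genes with a window. They occurred within 60 bases before the start in 10 of the 38 genes (26.3%), against 260 of 9460 tested genes (2.7%). CCAAT or ATTGG occurred in 71.1% of the 38 windows, against 43.7% of tested genes. The letters were chosen after the expression values were seen, and a match describes the sequence only, not a site in use.

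The windows of these 10 genes are shown because they carry the element, whatever their expression values. Of the 8 genes that rose past the threshold given below, 5 had a window, and 3 of these are shown: PSRC1, HMMR and MKI67. CKAP2 and TACC3, which also rose, had no such letters in the last 60 bases and no CCAAT letters in the 110. The other genes shown did not pass the threshold. Each sequence shows the 110 bases before the start, 5′ to 3′ on the strand of the gene. Capitals mark the searched letters of the last 60 bases, and CCAAT letters or their reverse complement ATTGG anywhere in the 110. The windows are PSRC1 at chr1:109283146-109283255 (minus), HMMR at chr5:163460522-163460631 (plus), CKAP2L at chr2:112764610-112764719 (minus), GTSE1 at chr22:46296760-46296869 (plus), MKI67 at chr10:128126424-128126533 (minus) and DEPDC1 at chr1:68497083-68497192 (minus). The others are PRC1 at chr15:90994536-90994645 (minus), ANLN at chr7:36389752-36389861 (plus), NCAPG at chr4:17810869-17810978 (plus) and CDCA5 at chr11:65084041-65084150 (minus).
PSRC1: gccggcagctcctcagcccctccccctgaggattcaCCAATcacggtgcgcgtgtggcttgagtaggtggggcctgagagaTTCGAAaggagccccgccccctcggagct
HMMR: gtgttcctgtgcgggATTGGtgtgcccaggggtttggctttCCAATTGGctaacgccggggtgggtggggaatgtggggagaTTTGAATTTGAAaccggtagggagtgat
CKAP2L: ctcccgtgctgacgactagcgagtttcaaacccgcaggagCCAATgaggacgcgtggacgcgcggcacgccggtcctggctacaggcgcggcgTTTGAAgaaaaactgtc
GTSE1: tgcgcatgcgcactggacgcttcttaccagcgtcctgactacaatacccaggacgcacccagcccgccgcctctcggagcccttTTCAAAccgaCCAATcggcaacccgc
MKI67: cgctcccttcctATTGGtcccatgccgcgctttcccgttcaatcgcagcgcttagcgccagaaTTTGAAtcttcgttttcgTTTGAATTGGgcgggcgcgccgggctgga
DEPDC1: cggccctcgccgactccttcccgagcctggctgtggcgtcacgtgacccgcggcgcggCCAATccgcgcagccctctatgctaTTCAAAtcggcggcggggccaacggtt
PRC1: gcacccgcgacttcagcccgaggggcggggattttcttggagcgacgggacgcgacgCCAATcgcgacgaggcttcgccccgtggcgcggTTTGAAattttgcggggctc
ANLN: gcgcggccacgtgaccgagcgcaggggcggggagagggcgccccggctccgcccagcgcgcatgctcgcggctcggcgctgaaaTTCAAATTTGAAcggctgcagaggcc
NCAPG: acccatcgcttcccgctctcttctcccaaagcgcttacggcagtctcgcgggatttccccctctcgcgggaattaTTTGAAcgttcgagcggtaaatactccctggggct
CDCA5: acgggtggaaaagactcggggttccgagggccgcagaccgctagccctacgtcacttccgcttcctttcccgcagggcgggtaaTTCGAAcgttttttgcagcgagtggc

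PSRC1 carried TTCGAA beginning at position -29, with CCAAT 45 bases above it, counted between first bases. HMMR carried TTTGAA back to back at -28 and -22, and its CCAAT and ATTGG letters overlap in 1 run. CKAP2L had TTTGAA at -17 with CCAAT 53 bases above, and a TTCAAA beyond the last 60 bases stands in lower case. GTSE1 had TTCAAA at -26 with its CCAAT nearer to the start, at -16. MKI67 carried TTTGAA at -47 and -29, the second sharing bases with an ATTGG. In DEPDC1 the element stood at -27 with CCAAT 25 bases above, and in PRC1 it stood at -20 with CCAAT 33 bases above. ANLN had TTCAAA at -26 directly followed by TTTGAA at -20. NCAPG and CDCA5 had the element at -35 and -26, and these 3 genes had no CCAAT letters in the 110 bases shown. Both this element near the start and CCAAT letters within the 250 bases before it occurred in 7 of the 38 genes (18.4%), against 1.3% of tested genes. By subgroup that was 4 of 13 spindle genes, 1 of 5 cytokinesis genes, 2 of 5 other mitotic genes and 0 of 15 condensin and cohesin genes. The element alone, within 60 bases before the start, occurred in 4 of 13, 2 of 5, 2 of 5 and 2 of 15 of them. Anywhere in the window, the searched letters occurred in 10 of 13 spindle, 5 of 5 cytokinesis and 5 of 5 other mitotic genes. Of the condensin genes 6 of 7 had them there, and of the cohesin genes 3 of 8, against 15.8% of tested genes.

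Across the arrays, between 20516 and 20959 probes were detected, and values are log2 intensities after background correction and quantile normalization. Taken across genes, which are no replicates of each other, Pearson's r was 0.992 to 0.994 for arrays of the same group and 0.989 to 0.991 for arrays of different groups. Of the markers of this line, VIM, CD44, EGFR, ANXA1, CAV1 and MSN were detected on all 6 arrays. ESR1, PGR and FOXA1 were detected on none and CDH1 on 1, whereas EPCAM and GATA3 were detected on all 6. The immune markers PTPRC and CD3E and the fibroblast markers COL3A1, DCN and PDGFRA were detected on no array. CD68, CD14 and COL1A2 were detected on all 6 arrays and COL1A1 on 3. COL1A2 had raw signals of 294, 323 and 292 with riluzole, against 384, 394 and 408 with vehicle, and no call was made for any of these 4.

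With riluzole, 6 of 17 spindle genes and 2 of 6 other mitotic genes rose, and no cytokinesis, condensin or cohesin gene passed the test. Of the 45 genes tested, 8 rose and 0 fell at an adjusted p under 0.05 in limma's moderated test, adjusted over all 14887 genes, and by unadjusted p under 0.05 there were 21 higher and 0 lower. At that unadjusted threshold 8.87% of all genes tested were higher and 7.45% lower. The 8 were the spindle genes TROAP, PSRC1, TACC3, CKAP2, TPX2 and HMMR, and the mitotic genes MKI67 and CDCA2. That is 17.8% of the 45, beside 0.752% of all tested genes that rose and 0.43% that fell. A positive difference was found for 35 of the 45, whose median log2 fold change was 0.26, against a median near 0 over all genes. In bulk RNA, more cells in mitosis and more RNA per cell cannot be told apart.

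**Figure D1:**
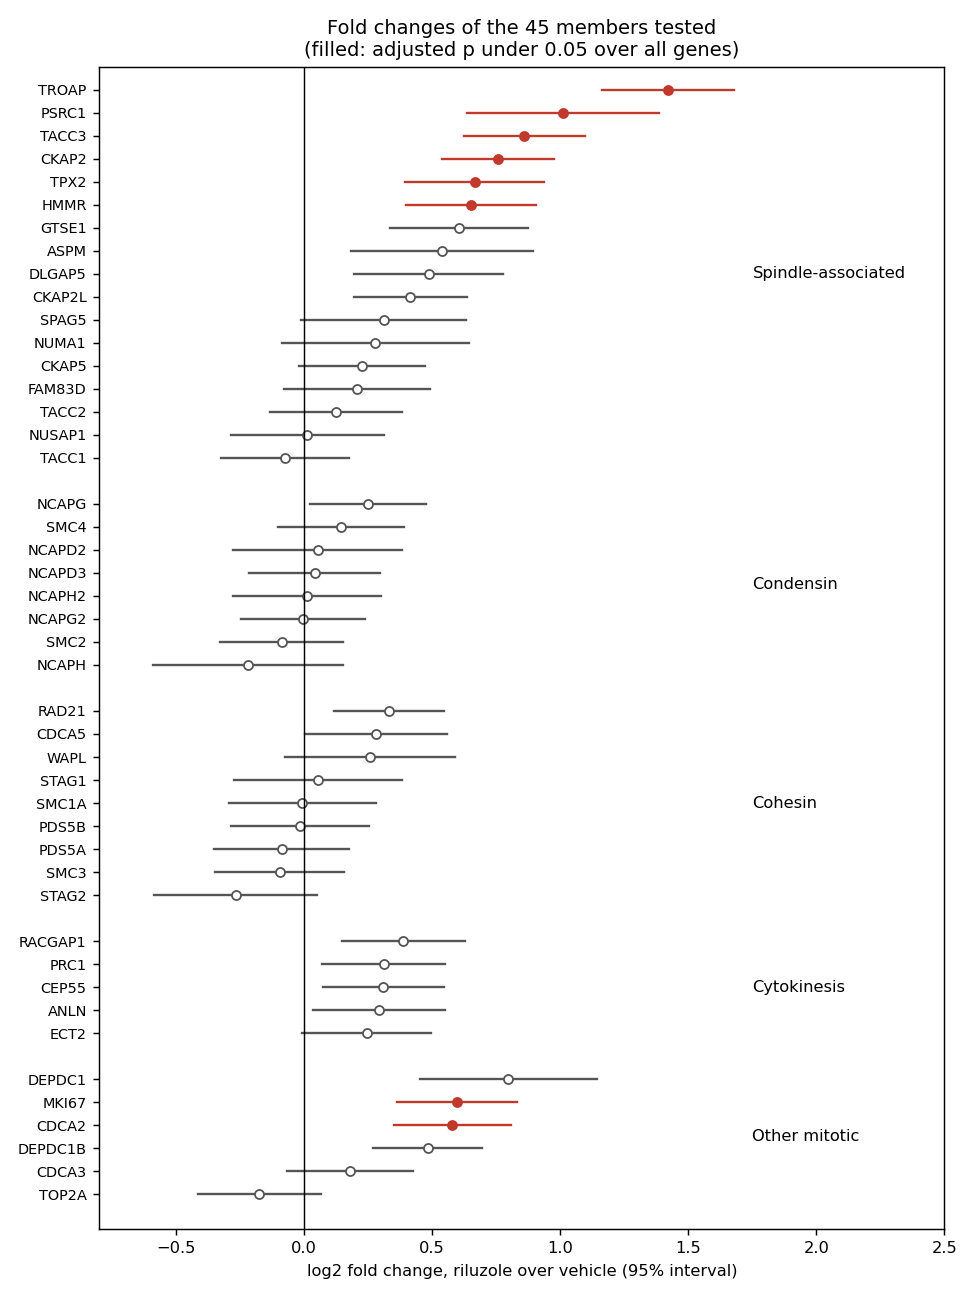
Log2 fold change of riluzole over vehicle, with its 95% interval, for each of the 45 genes tested, ordered within subgroups; filled red points mark the genes past the threshold. The spindle genes reach 1.42 for TROAP, the 5 cytokinesis genes sit between 0.24 and 0.39, and condensin and cohesin genes lie between -0.27 and 0.33.

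TROAP, a microtubule-associated protein needed for a bipolar spindle, had the largest difference of the 45. It read 11.46, 11.35 and 11.53 on the riluzole arrays, against 10.10, 10.12 and 9.87 on the vehicle arrays. The fold change was 2.68, with a 95% interval of 2.24 to 3.20 and an adjusted p of 0.00586. By p it ranked 3 among all 14887 genes, and every riluzole array lay more than 1 log2 unit above every vehicle array.

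PSRC1, which binds spindle microtubules and helps to align chromosomes, read 10.83, 11.28 and 11.20 with riluzole, against 10.33, 9.86 and 10.10 with vehicle. The groups did not overlap, although the arrays of each group spread by about 0.24 and 0.23 (SD, n = 3 each). The fold was 2.01 (interval 1.55 to 2.61, adjusted p = 0.0359), and a second detected probe of PSRC1 gave the same log2 fold change of 1.01.

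TACC3 crosslinks the microtubules of kinetochore fibres together with clathrin and the polymerase CKAP5. Its values were 11.96, 11.92 and 11.93 with riluzole, against 11.00, 11.21 and 11.03 with vehicle. The riluzole arrays lay within a few hundredths of each other, and all stood above all vehicle arrays. The fold was 1.82 (interval 1.54 to 2.14, adjusted p = 0.0151). The related TACC1 and TACC2 gave log2 fold changes of -0.08 and 0.12 (adjusted p = 0.801 and 0.656), and in both the groups overlapped.

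CKAP2, a nucleator of spindle microtubules, read 11.57, 11.53 and 11.61 with riluzole, against 10.83, 10.85 and 10.76 with vehicle. Replicates of both groups lay close together, and the fold was 1.69 (interval 1.45 to 1.96, adjusted p = 0.0168). The related CKAP2L, also a spindle protein, read 11.69, 11.77 and 11.79 with riluzole, against 11.38, 11.33 and 11.29 with vehicle. Its groups were separate too, but its fold of 1.33 did not pass the threshold (adjusted p = 0.0892).

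TPX2 activates Aurora A and starts microtubule growth around chromosomes under the control of Ran. It read 12.60, 12.52 and 12.42 with riluzole, against 11.94, 11.94 and 11.67 with vehicle, a fold of 1.59 (interval 1.31 to 1.91, adjusted p = 0.0458). HMMR, a hyaluronan receptor that also binds spindle microtubules and works with TPX2, read 9.91, 10.16 and 10.07 with riluzole, against 9.49, 9.34 and 9.35 with vehicle. The groups did not overlap for either gene. HMMR's fold was 1.57 (interval 1.32 to 1.87, adjusted p = 0.0417), and its second probe gave a log2 fold change of 0.68.

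**Figure D2:**
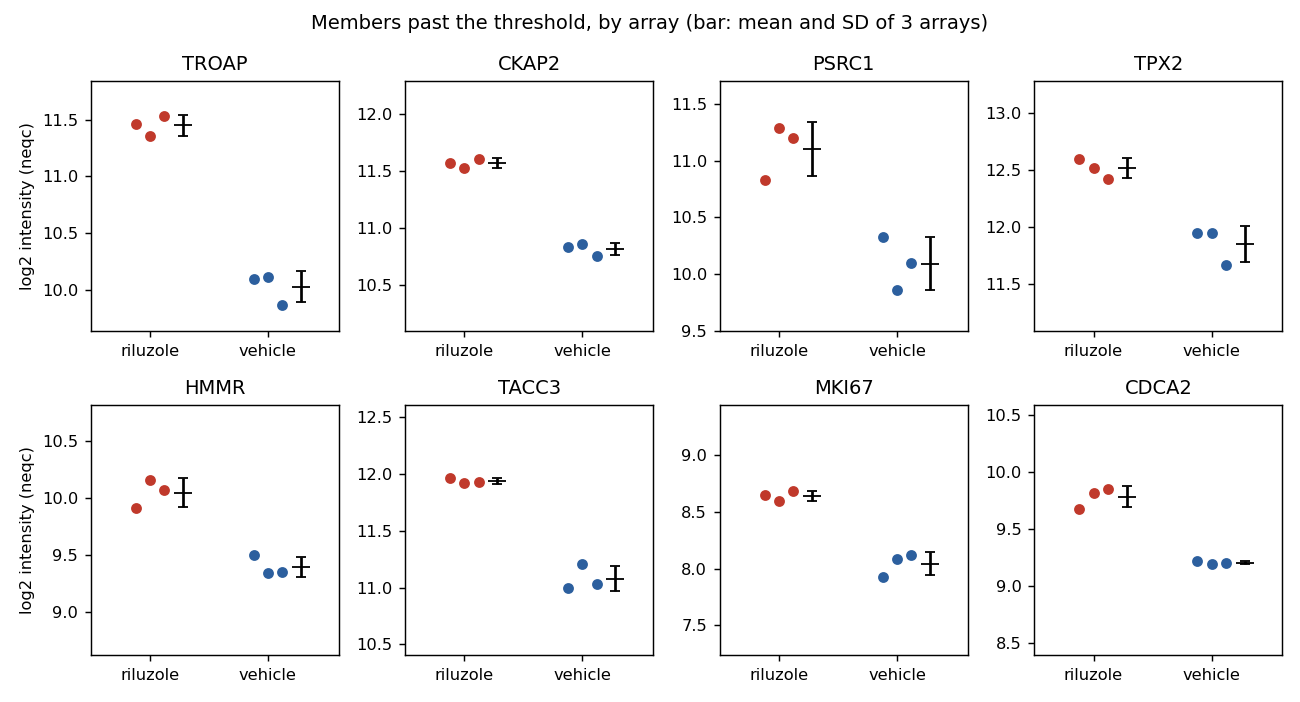
Log2 intensity on each array of the 8 genes past the threshold, 1 panel per gene, with riluzole on the left and vehicle on the right; points are arrays, and the bar beside them is the mean with the SD of 3 arrays. In all 8 panels every riluzole array lies above every vehicle array, with the widest gap in TROAP and spread within riluzole in PSRC1.

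Of the other spindle genes, GTSE1, DLGAP5, ASPM and CKAP5 also had all riluzole arrays above all vehicle arrays, without a call. GTSE1, which inhibits a microtubule-depolymerising kinesin, read 10.52, 10.48 and 10.41 with riluzole, against 10.03, 9.68 and 9.88 with vehicle (fold 1.52, adjusted p = 0.0545). DLGAP5, a stabiliser of kinetochore fibres, had log2 fold changes of 0.49 and 0.37 on its 2 detected probes (adjusted p = 0.115 for the brighter). ASPM, a protein of spindle poles, spread from 11.88 to 12.42 on the vehicle arrays, against 12.52 to 12.71 on the riluzole arrays (adjusted p = 0.144). The microtubule polymerase CKAP5 gave a fold of 1.17 (interval 0.986 to 1.39).

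The groups overlapped in 6 spindle genes, namely NUSAP1, SPAG5, TACC1, TACC2, NUMA1 and FAM83D. SPAG5, which secures kinetochore attachment, and NUMA1, which tethers dynein at the poles, gave log2 fold changes of 0.31 and 0.28 (adjusted p = 0.323 and 0.441), and a further probe of NUMA1 gave 0.45. FAM83D, a spindle adaptor that recruits HMMR and casein kinase 1, gave 0.20. NUSAP1, a microtubule bundler, gave 0.01 on its brighter probe, with 12.29, 12.45 and 12.45 for riluzole against 12.62, 12.23 and 12.30 for vehicle. Its other detected probe gave -0.30, with all riluzole arrays below all vehicle arrays, so the direction of NUSAP1 is not settled by these arrays.

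Of the 17 spindle genes 16 had a positive difference and 6 rose, and the median log2 fold change was 0.49. All riluzole arrays lay above all vehicle arrays in 11 of the 17, against 11.8% of all genes tested. The reverse order, seen in 11% of all genes, was found in 0 of the 17.

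Of the cytokinesis genes, all 5 tested had every riluzole array above every vehicle array, an order found in 11.8% of all genes tested. Their log2 fold changes were 0.24 to 0.39, with a median of 0.31. In limma's test 0 of the 5 passed the threshold, and 4 were higher and 0 lower by unadjusted p under 0.05 (8.87% and 7.45% of all genes). RACGAP1, the GTPase-activating subunit of the centralspindlin complex, read 12.06, 11.97 and 12.09 with riluzole, against 11.54, 11.67 and 11.75 with vehicle. Its fold was 1.31 (interval 1.11 to 1.54, adjusted p = 0.124), and a second probe gave a log2 fold change of 0.58.

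PRC1, which bundles antiparallel microtubules of the central spindle, read 13.19, 13.09 and 12.95 with riluzole, against 12.75, 12.74 and 12.81 with vehicle (adjusted p = 0.193). CEP55, which recruits the abscission machinery to the midbody, read 12.83, 12.71 and 12.92 with riluzole, against 12.53, 12.45 and 12.56 with vehicle (adjusted p = 0.189). Both differed by 0.31 log2 units. The contractile ring scaffold ANLN and the RhoA activator ECT2 gave 0.29 and 0.24 (adjusted p = 0.247 and 0.32).

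Among the 6 other mitotic genes, MKI67 and CDCA2 rose. MKI67, the gene of the Ki-67 antigen that coats mitotic chromosomes, read 8.65, 8.59 and 8.68 with riluzole, against 7.93, 8.08 and 8.12 with vehicle. Its fold was 1.51 (interval 1.29 to 1.78, adjusted p = 0.0418). CDCA2, a targeting subunit of protein phosphatase 1 on chromatin, read 9.68, 9.82 and 9.85 with riluzole, against 9.22, 9.20 and 9.20 with vehicle. CDCA2's fold was 1.49 (interval 1.28 to 1.75, adjusted p = 0.0418).

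DEPDC1 read 11.78, 11.57 and 11.53 with riluzole, against 10.70, 11.14 and 10.66 with vehicle. Its log2 difference of 0.80 was larger than that of 5 of the 8 called genes, but the vehicle arrays spread by 0.27 (SD, n = 3) and the adjusted p was 0.0515. Its relative DEPDC1B, with 10.87, 10.86 and 10.88 for riluzole against 10.35, 10.41 and 10.41 for vehicle, had an adjusted p of 0.0536. CDCA3, a cell cycle ubiquitin-ligase factor, differed by 0.18 (adjusted p = 0.472).

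TOP2A, the topoisomerase that untangles sister chromatids, was the only one of the 45 with all riluzole arrays below all vehicle arrays. This order was found in 11% of all genes tested. TOP2A read 13.31, 13.18 and 13.39 with riluzole, against 13.41, 13.50 and 13.51 with vehicle. The log2 fold change was -0.18, with an interval of -0.41 to 0.06 and an adjusted p of 0.463.

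Condensin and cohesin genes gave no call, with 0 of 17 higher and 0 of 17 lower, and by unadjusted p under 0.05 there were 3 higher and 0 lower (8.87% and 7.45% of all genes). Their log2 fold changes ran from -0.27 to 0.33, with a median of 0.01. The 95% interval lay within a 1.5-fold change in either direction for 14 of the 17, against 5 of the 17 spindle genes. The same held for 4 of the 5 cytokinesis genes tested. The share of all genes tested with such an interval was not counted, so these counts are descriptions only. In 3 of the 17 condensin and cohesin genes the interval lay above 0.

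Condensin I is built from NCAPH, NCAPD2 and NCAPG, condensin II from NCAPH2, NCAPD3 and NCAPG2, and both share the ATPases SMC2 and SMC4. NCAPG read 12.41, 12.50 and 12.44 with riluzole, against 12.24, 12.25 and 12.11 with vehicle (log2 fold change 0.25, adjusted p = 0.263). It was the only condensin gene whose groups were separate, and 11.8% of all genes tested had all riluzole arrays above all vehicle arrays. Its partners NCAPD2 and NCAPH gave 0.05 and -0.22, and NCAPH was dim, between 6.51 and 7.21 over all arrays. In condensin II, NCAPH2, NCAPD3 and NCAPG2 gave 0.01, 0.04 and -0.01. SMC2 and SMC4 gave -0.09 and 0.14, and 3 detected probes of SMC2 all lay between -0.09 and -0.02.

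In the cohesin ring, RAD21, the kleisin that separase cuts, read 13.21, 13.22 and 13.22 with riluzole, against 12.90, 12.92 and 12.84 with vehicle. The difference of 0.33 did not pass the threshold (adjusted p = 0.138), and a second, more variable probe gave -0.05. SMC3 and SMC1A, the ring's ATPases, gave -0.10 and -0.01, the last at a signal near background, and a dimmer SMC3 probe gave -0.35. The alternative subunits STAG1 and STAG2 gave 0.05 and -0.27, and STAG2 read 10.40, 9.98 and 10.16 with riluzole against 10.29, 10.57 and 10.48 with vehicle.

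Among the regulators of cohesin, CDCA5, the sororin that protects cohesion, read 13.08, 13.29 and 13.33 with riluzole, against 12.95, 12.81 and 13.10 with vehicle (0.28, adjusted p = 0.302). The groups overlapped in that riluzole array 1 lay below vehicle array 3. WAPL, which opens the ring, gave 0.26 on its brighter probe, which stands for the gene and which the array names by another synonym. The dimmer probe, which the array names WAPAL as in the list, gave -0.20. PDS5A and PDS5B, which bind the ring beside WAPL, gave -0.09 and -0.02, and a dimmer probe of PDS5B gave -0.33.

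**Figure D3:**
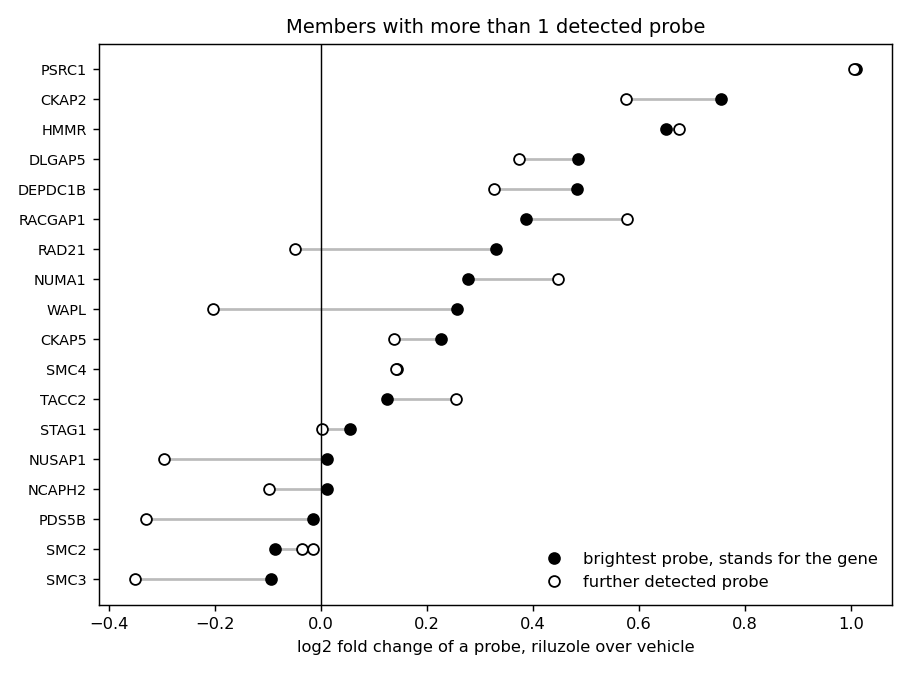
Log2 fold change of riluzole over vehicle for every detected probe of the 18 genes that have 2 or more; filled points are the brightest probes, which stand for the gene, and open points the further probes. PSRC1, HMMR, CKAP2 and RACGAP1 agree in sign between probes, whereas NCAPH2, NUSAP1, RAD21 and WAPL have probes on both sides of 0.

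In all, 64 of 74 probes of the 46 genes were detected. Of the 18 genes with 2 or more detected probes, the probes had the same sign in 14 and opposite signs in 4. Of the 4, none is among the 8 genes called. However, TROAP, TACC3, TPX2, MKI67 and CDCA2 had 1 detected probe each, so agreement between probes could not be read for them.

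The subgroups were compared on each array by the median, over their genes, of the difference from the vehicle mean. Spindle genes stood at 0.52, 0.43 and 0.46 on the riluzole arrays, against 0.05, 0.03 and -0.04 on the vehicle arrays. Cytokinesis genes stood at 0.40, 0.31 and 0.22 with riluzole, against -0.02, 0.01 and 0.04 with vehicle. Condensin and cohesin genes stood at 0.07, 0.01 and 0.04 with riluzole, against -0.07, 0.05 and 0.03 with vehicle. On each riluzole array the spindle median was the highest of these 3 subgroups and the condensin and cohesin median the lowest. The 6 other mitotic genes stood at 0.48, 0.51 and 0.56 with riluzole, against -0.05, 0.02 and 0.01 with vehicle. Their median was above that of the spindle genes on riluzole arrays 2 and 3. These medians are descriptions without a test.

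**Figure D4:**
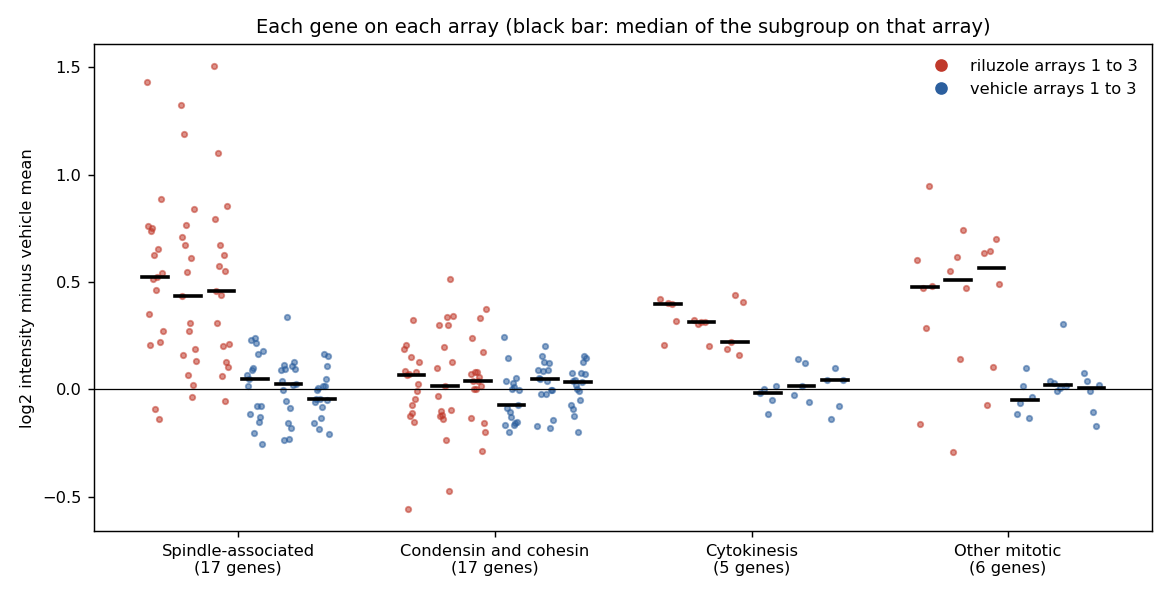
Difference from the vehicle mean, in log2 units, of each gene on each array (points) and the median of its subgroup (black bars), with riluzole arrays left of vehicle arrays. The spindle medians on the riluzole arrays lie between 0.43 and 0.52, and those of cytokinesis between 0.22 and 0.40. Those of condensin and cohesin lie between 0.01 and 0.07, and those of the other mitotic genes between 0.48 and 0.56.

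Within the condensin and cohesin genes, the condensin median was 0.03 over 8 genes and the cohesin median -0.01 over 9. A positive difference was found for 5 of the 8 and 4 of the 9. On riluzole arrays 1, 2 and 3, 35, 35 and 39 of the 45 genes lay above the vehicle mean. The median deviations of the 45 there were 0.27, 0.30 and 0.20. Over all genes tested, 50.2% had a positive difference between the groups.

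Other genes of the same processes were read from 3 further lists. Of 35 tested spindle companions (the augmin and gamma-tubulin complexes, plus-end and Ran factors), 0 rose, 0 fell and the median was 0.02, with 6 higher and 4 lower by unadjusted p under 0.05 (8.87% and 7.45% of all genes). NEDD1, which anchors gamma-tubulin, gave -0.49 (adjusted p = 0.0696), and TUBGCP6, a subunit of that ring complex, gave 0.50 (adjusted p = 0.0864). The augmin subunit HAUS5 gave 0.45 and the Ran exchange factor RCC1 gave -0.37.

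Of 20 tested condensin and cohesin companions, 0 rose and 0 fell, with a median of 0.17 and with 8 higher and 2 lower by unadjusted p under 0.05 (8.87% and 7.45% of all genes). SGO1, the protector of centromeric cohesion, gave 0.54 (adjusted p = 0.1), and the securin PTTG1 gave 0.48 (adjusted p = 0.108). The chromokinesin KIF4A gave 0.42 and DSCC1, a loader of the replication clamp, gave -0.40.

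Of 33 tested cytokinesis companions, 2 rose and 0 fell, and the median was -0.005. Over all genes tested, 0.752% rose and 0.43% fell. By unadjusted p under 0.05 there were 6 higher and 1 lower of the 33 (8.87% and 7.45% of all genes). The 2 that rose were mitotic kinesins. KIF14, which recruits citron kinase to the midbody, read 11.19, 11.16 and 11.19 with riluzole, against 10.53, 10.40 and 10.37 with vehicle (fold 1.68, adjusted p = 0.0185). KIF23, the motor of centralspindlin and partner of RACGAP1, read 11.45, 11.52 and 11.51 with riluzole, against 10.87, 10.86 and 11.05 with vehicle (fold 1.48, adjusted p = 0.0487). In both the groups were separate. KIF20A, a kinesin of the central spindle, gave 0.54 (adjusted p = 0.0509), and ARHGEF2, a RhoA activator, gave 0.52 (adjusted p = 0.0734). The rest of that list, which holds actomyosin and membrane-scission genes, gave no call.

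**Figure D5:**
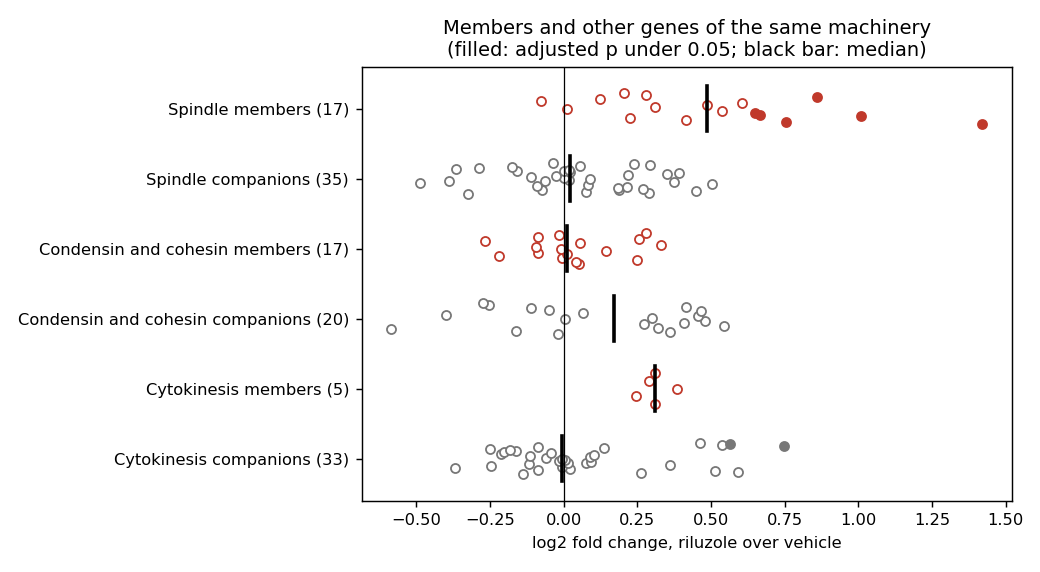
Log2 fold change of riluzole over vehicle for the 46-gene subgroups beside the companion lists, 1 point per gene, filled where it passed the threshold, with the median as a black bar. The spindle median is 0.49 beside 0.02 for its companions, and the cytokinesis median is 0.31 beside -0.005 for its companions. The condensin and cohesin median is 0.01, below the 0.17 of its companions.

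The fit was repeated with each array left out in turn. With any array left out, between 1 and 2 of the 45 genes rose, against 8 with all 6 arrays. Over all genes tested, the number past the threshold was 21 to 41 in these fits, against 176 with all 6 arrays. The spindle median was 0.42 to 0.53 there, so the loss of calls was not particular to these genes. TROAP passed in all 6 of these fits, with an adjusted p of 0.0141 to 0.0318. PSRC1 passed without riluzole array 1 (adjusted p = 0.049) and TACC3 without vehicle array 2 (adjusted p = 0.0438), and the other 5 passed in none. Among 10 other settings TROAP was called in 10, CKAP2 and TACC3 in 9, PSRC1 and MKI67 in 7, and TPX2, HMMR and CDCA2 in 6.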

How the data were processed

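RNA of MDA-MB-231 cells, 3 samples with riluzole and 3 with vehicle, was labelled as biotinylated cRNA and read on Illumina bead arrays, per the labels' protocols. The authors deposited a linear intensity per probe, the average bead signal per the file headers, with a detection p-value. They also deposited processed intensities, with no statement of how they were computed; column medians were 20.6 to 21.6, and 19.4% to 22.3% of values lay below 0.

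From the unprocessed intensities, limma 3.58.1 in R 4.3.3 computed neqc values (background from detection p-values, offset 16, quantile normalization, log2). The offset draws folds of dim probes toward 1. Each gene took its brightest kept probe, and RefSeq GRCh38.p14 updated the symbols. The fit used lmFit and eBayes with group alone, two-sided, adjusted by Benjamini-Hochberg over 14887 genes at 0.05. Alternatives changed the background, scaling, filter, variance, weights, probe rule and arrays used. The number of arrays limits the precision. Steps were tested on simulated data.

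All 46 members are named whatever their values, as are companion genes past the threshold and otherwise up to 4 per list with the smallest p. The members and lists were chosen with earlier results of these data known. Same-numbered arrays deviated together at correlations of -0.146, -0.105 and 0.001, and the numbers were not taken as pairs. So few arrays cannot exclude a pairing. A listed marker of another cell type is not reported here.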

Additional observations from a re-analysis of the deposited data

How the results depend on the processing

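Over all genes, 176 passed the threshold. The count was 563 without background correction, 94 on the authors' processed values, 70 without the detection filter, 360 under strict detection, 661 with an intensity trend and robust variance, and 22 with the replicate block. Of the 45 genes, 8 rose, against 15 without background correction, 5 with median scaling, 3 on the processed values and 3 without the filter. With the trend 16 rose, and with the replicate block 1 (TROAP). The labels do not say whether the numbers pair the arrays. Strict detection gave 12, and 0 fell under any setting. Leaving out each array gave 21 to 41 genes over all and 1 to 2 of the 45. The spindle median of 0.49 was 0.45 with median scaling, 0.43 with averaged probes and 0.42 to 0.53 with an array left out. Those of condensin and cohesin ran from -0.0421 to 0.0869 and of cytokinesis from 0.26 to 0.36.

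None of the 8 called genes changed sign under any setting, and 8 uncalled genes did. NUSAP1 gave -0.00796 with median scaling and -0.143 with averaged probes, and NCAPH2 gave -0.00988 and -0.0439 there. SMC1A gave 0.0116 with median scaling, 0.0304 on the processed values and 0.0291 with array weights. With an array left out the ranges were -0.0665 to 0.131 for NUSAP1, -0.0319 to 0.174 for NCAPD2, -0.0421 to 0.0877 for NCAPD3, -0.0491 to 0.0536 for NCAPG2, -0.0886 to 0.0869 for NCAPH2, -0.107 to 0.0947 for SMC1A, -0.0683 to 0.158 for STAG1 and -0.0871 to 0.0749 for PDS5B. The cause was not tested. The setting with 770 negative control probes was chosen after seeing the data and gave 176 genes over all and 8 of the 45. Dim genes such as SMC1A are limited by their signal over background.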
